A study of Brassica napus with 112 samples.

Results

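The gene described here is BnaC08g31840D, named MYC67 by the study, which is 1 of the 101040 genes in the deposited expression table. It was chosen by its name, as 1 of the 5 transcription factors that the study placed at the centre of a co-expression module called indianred2. The choice was made with earlier results of these data known. That network was built from the 28 seed libraries taken 7 days after flowering (DAF), so the values of MYC67 in those libraries are not independent of its being named. The table lists it under gene ID GSBRNA2T00127051001 and transcript CDX76598, and its identifier places it on chromosome C08, where the table holds 5018 genes. No sequence of the genome build used by the files was at hand, so neither coordinates nor sequence are given.

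RNA was measured in oilseed rape (Brassica napus), in 56 libraries from seeds and 56 from siliques, the pods that enclose the seeds. Both spring hybrids, Lumen and Solar, were grown in the field in season 1 (2019-20) and season 2 (2020-21), and their plots were either left unmanipulated (control) or heated towards 5 °C above ambient from the start of flowering to 15 DAF. Each of the 16 conditions per tissue, formed by hybrid, treatment, time (7 or 14 DAF) and season, has 3 libraries in season 1 and 4 in season 2. Material came from 5 plants per plot and 25 siliques per plant from the lowest part of the main inflorescence. Heated plots stood under polyethylene film with fan heaters and control plots did not, so warming and the film's other effects cannot be told apart. Season cannot be told apart from anything else that changed between the 2 years. Solar flowered and was sampled on later dates than Lumen, by more days in season 1 than in season 2. Hybrid and sampling date therefore cannot be told apart. The field layouts are described with 3 replicates in both seasons. Season 1 was a split plot, with heat on the main plots and hybrids on the sub-plots, and season 2 used randomized blocks. Which plot gave which library, the fourth of season 2 included, is not given in the sources used here. The p-values and SEs therefore measure the spread between these libraries, and not that between main plots or blocks.

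MYC67 carries the name of an Arabidopsis protein of the basic helix-loop-helix (bHLH) family. bHLH proteins are transcription factors that pair through their helices and contact short DNA elements called E-boxes through the basic stretch next to them. In Arabidopsis the family includes SPEECHLESS, MUTE and FAMA, which act in the stomatal lineage, and MYC2, which acts in jasmonate responses. The files do not say which of these proteins the rape gene resembles most.

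The deposited values are whole numbers that the authors normalized and rounded. Library sums ran from 890194 to 1658548 with a median of 983956, and the number of reads behind a value is not given by the table, so no counting error can be given. The libraries with the most genes at 0 and with the largest share in 10 genes were treated as standing apart. Heated Lumen at 7 DAF in season 2, replicate 4, had 66990 genes at 0, and control Solar at 14 DAF in season 1, replicate 1, had 33.5% of its sum in 10 genes, and both are from seeds. Among siliques, control Solar at 14 DAF in season 1, replicate 2, had the highest sum, 1245569, with 10.7% of it in 10 genes. The label of the seed libraries could be checked with 1 marker only, INO1 (BnaC05g18750D). In Arabidopsis INNER NO OUTER acts in the outer integument of the ovule, from which part of the seed coat forms. INO1 ranged from 8 to 51 in the 28 seed libraries at 7 DAF and from 9 to 24 at 14 DAF, and from 0 to 2 in the siliques, so seed and silique libraries did not overlap for this marker. No marker of the silique wall was tied to an identifier.

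MYC67 was higher in seeds than in siliques in every condition, it rose in seeds between 7 and 14 DAF, and it fell in siliques over the same week. Over the 28 libraries of each tissue and time, its value was 21.3 ± 4.69 (SD) in seeds at 7 DAF and 30.3 ± 6.68 in seeds at 14 DAF. In siliques it was 5.61 ± 2.42 at 7 DAF and 2.71 ± 1.86 at 14 DAF. It was also higher in season 2 than in season 1 in seeds, at 28.8 ± 6.84 (n = 32) against 21.6 ± 5.77 (n = 24). Its heat effect did not pass the threshold in either tissue.

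**Figure D1:**
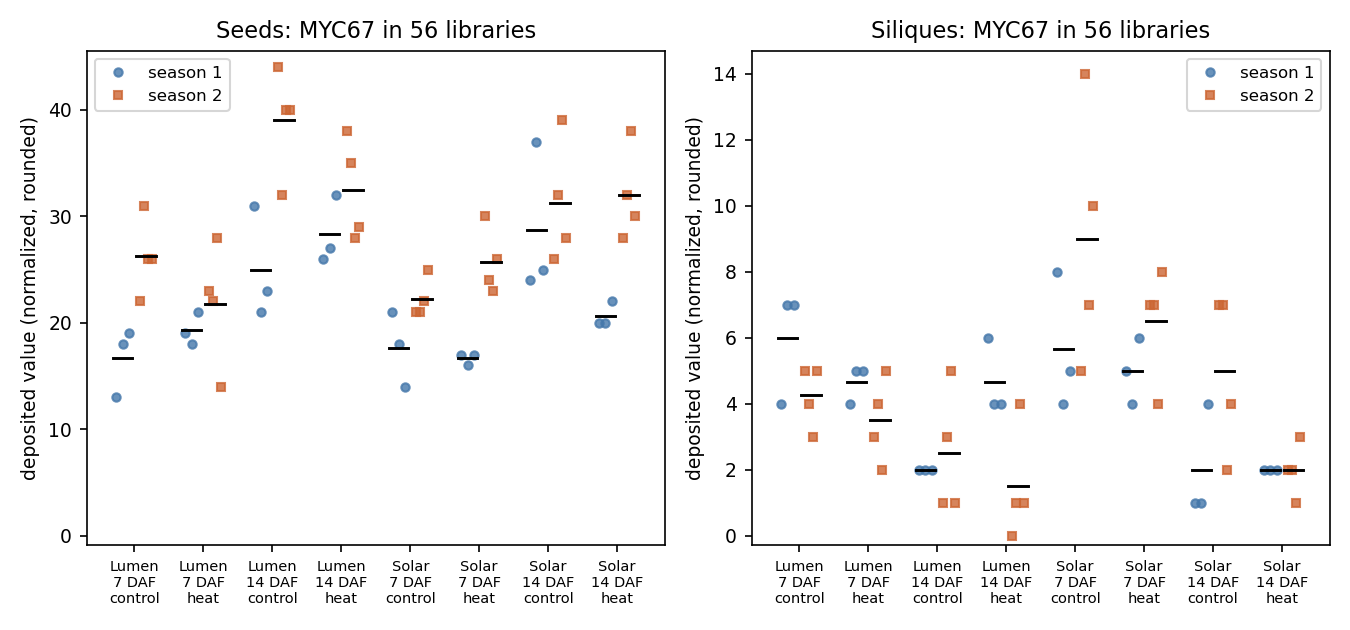
Deposited MYC67 value of each library (y axis, normalized and rounded units, with a different scale in each panel) in seeds and siliques for the 8 combinations of hybrid, time and treatment (x axis). Circles are season 1, squares season 2 and black bars the condition means. Seed libraries run from 13 to 44 and silique libraries from 0 to 14.

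In seeds of control Lumen at 7 DAF, the 3 libraries of season 1 held 13, 18 and 19 and the 4 of season 2 held 22, 26, 26 and 31. In heated Lumen at 7 DAF they held 18, 19 and 21 in season 1 and 14, 22, 23 and 28 in season 2. The seasons did not overlap in the control plots, and in the heated plots only the library of value 14, 1 of the 2 that stood apart, lay below season 1. In control Solar at 7 DAF the values were 14, 18 and 21 in season 1 and 21, 21, 22 and 25 in season 2. In heated Solar at 7 DAF they were 16, 17 and 17 in season 1 and 23, 24, 26 and 30 in season 2. The season 1 libraries of Solar thus lay at or below those of season 2 under both treatments.

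A week later the seed values were higher in both hybrids. In control Lumen at 14 DAF the libraries held 21, 23 and 31 in season 1 and 32, 40, 40 and 44 in season 2. In heated Lumen at 14 DAF they held 26, 27 and 32 in season 1 and 28, 29, 35 and 38 in season 2. The season 2 control plots of Lumen had the highest mean of all 32 conditions, 39.0 ± 5.03 (SD, n = 4). In control Solar at 14 DAF the values were 24, 25 and 37 in season 1 and 26, 28, 32 and 39 in season 2. In heated Solar at 14 DAF they were 20, 20 and 22 in season 1 and 28, 30, 32 and 38 in season 2. The season 1 values of heated Solar lay below those of the matching control plots without overlap, which was the case in none of the other 7 heat pairs in seeds, and 18% of genes had at least 1 such pair.

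Silique values were small whole numbers, so that rounding by 1 unit is a large part of them. In control Lumen at 7 DAF they were 4, 7 and 7 in season 1 and 3, 4, 5 and 5 in season 2. In heated Lumen at 7 DAF they were 4, 5 and 5 in season 1 and 2, 3, 4 and 5 in season 2. Heated and control plots of Lumen overlapped in both seasons at this time. In control Solar at 7 DAF the libraries held 4, 5 and 8 in season 1 and 5, 7, 10 and 14 in season 2. In heated Solar at 7 DAF they held 4, 5 and 6 in season 1 and 4, 7, 7 and 8 in season 2. The season 2 control plots of Solar at 7 DAF had the highest silique mean, 9.0 ± 3.92 (SD, n = 4), and the widest silique spread.

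At 14 DAF the silique values were lower again. In control Lumen all 3 libraries of season 1 held 2, and those of season 2 held 1, 1, 3 and 5. In heated Lumen the values were 4, 4 and 6 in season 1 and 0, 1, 1 and 4 in season 2. Heated Lumen of season 1 lay above its control plots without overlap, the only such heat pair in siliques, and 19.5% of genes had at least 1. Heated Lumen of season 2 had the lowest mean of all conditions, 1.50 ± 1.73 (SD, n = 4), with the only library at 0. In control Solar the libraries held 1, 1 and 4 in season 1 and 2, 4, 7 and 7 in season 2. In heated Solar all 3 libraries of season 1 held 2, and those of season 2 held 1, 2, 2 and 3. The control plots of Solar in season 2 thus reached 7 where no heated library of that hybrid and time exceeded 3.

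Ordered by mean, the 16 seed conditions came first and the 16 silique conditions last. The lowest seed condition was heated Solar at 7 DAF in season 1, at 16.7 ± 0.577 (SD, n = 3), and next below it stood the silique control plots of Solar at 7 DAF in season 2. That is the only 1 of the 31 pairs of neighbours in the order whose libraries did not overlap, and its exact two-sided permutation test gave p = 0.0571, the smallest that 3 against 4 libraries would allow with both tails. For 29 of the 31 neighbouring pairs the means differed by less than the larger of their SDs. Within a tissue, the order of adjacent conditions is therefore not resolved. The top 6 places were all seeds at 14 DAF, and 4 of those 6 were season 2.

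The first comparison asked how the gene differs between the tissues. At 7 DAF the seed mean was 3.79 times the silique mean, and at 14 DAF it was 11.1 times. On the log2(value + 0.5) scale used for all tests, which understates the change of low values, seeds exceeded siliques by 1.86 (SE 0.13) at 7 DAF and by 3.43 (SE 0.13) at 14 DAF. The adjusted p-values (limma with Benjamini-Hochberg adjustment over 60177 genes) were 1.80e-24 and 3.71e-42. Seed and silique libraries did not overlap in any of the 16 matched conditions, which 5.77% of the genes tested equalled in the same direction.

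Most genes differed between seeds and siliques, so the call alone says little. At an adjusted p under 0.01, 77.5% of genes were called at 7 DAF, 45% as higher in seeds, and 80.1% at 14 DAF, 47.5% as higher in seeds. The difference of MYC67 was larger than that of 94.5% of the genes at 7 DAF and 97.2% at 14 DAF. The median gene itself differed by 0.22 and 0.26 in favour of seeds. After each library was rescaled by the median ratio of its genes, the differences of MYC67 were 1.59 and 3.16. In bulk tissue, fewer expressing cells and less RNA per cell cannot be told apart, in siliques as in seeds.

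Time was the factor with the largest share of the variation of MYC67 in both tissues, 38.7% of the sum of squares on the log2 scale in seeds and 34.7% in siliques. In seeds the gene rose by 0.50 (SE 0.06, 95% interval 0.38 to 0.63) from 7 to 14 DAF, with an adjusted p of 3.96e-09 by limma with Benjamini-Hochberg adjustment. In siliques it changed by -1.06 (SE 0.16, interval -1.39 to -0.73), with an adjusted p of 8.16e-07. In ratios of means, the seed value at 14 DAF was 1.42 times that at 7 DAF, and the silique value at 7 DAF was 2.07 times that at 14 DAF. A permutation test of time, within the strata of the other factors, gave p = 1.000e-05 in each tissue, the smallest that 100000 draws can give. Without the 2 seed libraries that stood apart, the seed rise was 0.49. Seed libraries of the 2 times also differed in the sum of normalized values. Its median was 957769 at 7 DAF and 1042716 at 14 DAF. The median number of genes at 0 was 48382 and 46138. With each library rescaled by the median ratio of its genes, the seed rise was 0.50 (limma adjusted p 3.66e-09). The part of these measures in the rise was not tested beyond that. Without the silique library of the highest sum, the silique change was -1.03 (limma adjusted p 2.26e-06).

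Many genes changed with time. At an adjusted p under 0.01, 37% of 53350 genes were called in seeds, 20.7% as higher at 14 DAF, and 34.3% of 54752 in siliques, 17.1% as lower. In seeds the mean of MYC67 was higher at 14 DAF in 8 of the 8 pairs matched for hybrid, treatment and season, and in 6 of them the libraries did not overlap. As many such pairs were reached by 3.79% of the genes tested. In siliques the mean was lower at 14 DAF in 7 of 8 pairs and equal in heated Lumen of season 1, and the libraries of 3 pairs did not overlap, as many as 8.74% of genes reached.

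The time change was called within each hybrid and each season. In seeds it was 0.57 in Lumen (adjusted p 1.14e-06) and 0.44 in Solar (8.16e-05), and 0.52 in season 1 (2.27e-05) and 0.48 in season 2 (3.69e-06), by limma with Benjamini-Hochberg adjustment. In siliques it was -0.89 in Lumen (0.00195) and -1.23 in Solar (6.40e-05), and -0.98 in season 1 (0.00388) and -1.14 in season 2 (2.55e-05). Of all genes, 25.7%, 24.8%, 18.9% and 31.1% were called in these seed contrasts, and 26.5%, 18.1%, 9.87% and 35.1% in the silique ones. Lumen in siliques did not pass without all libraries numbered 1, 2 or 4, with adjusted p of 0.0187, 0.0532 and 0.0201, and season 1 in siliques did not without those numbered 1 or 2, at 0.0196 and 0.124, and stood at 0.01001, just over the threshold, without the silique library of the highest sum. In Solar seeds the adjusted p was 0.0149 without number 2 and 0.0128 without number 3. When a season was fitted alone, the call was lost for Lumen siliques in season 1 (adjusted p 0.0685) and season 2 (0.014), for Solar siliques in season 2 (0.0121) and for Solar seeds in season 2 (0.0167). No interaction of time with hybrid, heat or season passed in either tissue, with adjusted p from 0.62 upwards.

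**Figure D2:**
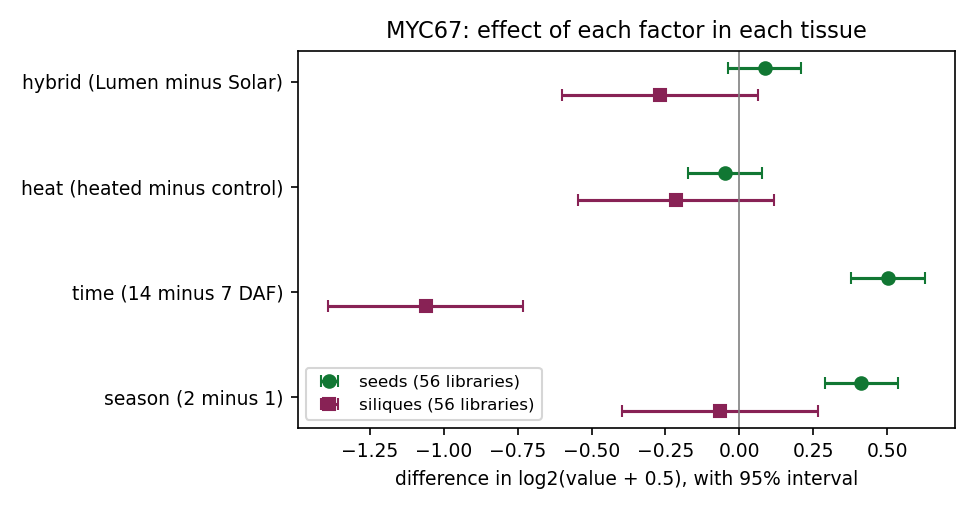
Difference in log2(value + 0.5) of MYC67 for each of the 4 factors (x axis, points with 95% intervals from limma), with circles for seeds and squares for siliques. The time effect lies at 0.50 in seeds and at -1.06 in siliques, and the intervals for heat and hybrid include 0 in both tissues.

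The direction of the time change differed between the tissues. The seed change minus the silique change was 1.56 (SE 0.18, 95% interval 1.21 to 1.92), with an adjusted p of 6.26e-12 by limma with Benjamini-Hochberg adjustment. By that test 22.2% of genes were called, 12.8% in the same direction, and 97.3% of genes had a lower value than MYC67. Of 47925 genes tested in both tissues, 662 (1.38%) were called higher at 14 DAF in seeds and lower in siliques, and MYC67 was 1 of them. In 59 genes both the rise and the fall were larger than those of MYC67. Among genes with the opposite pattern, lower in seeds and higher in siliques, there were 572 (1.19%).

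Season was the other factor that went with MYC67 in seeds, at 26.1% of the sum of squares. The gene was higher in season 2 by 0.41 (SE 0.06, interval 0.29 to 0.54), with an adjusted p of 8.18e-07 by limma with Benjamini-Hochberg adjustment, where 27.3% of genes were called and 12.2% as higher. This fit holds the 7 DAF libraries from which the gene was named, and at 7 DAF the values are therefore given as a description: 17.6 ± 2.43 (SD, n = 12) in season 1 and 24.0 ± 4.05 (n = 16) in season 2. At 14 DAF, in libraries that the naming did not use, they were 25.7 ± 5.30 (n = 12) and 33.7 ± 5.50 (n = 16).

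At 14 DAF alone the season difference in seeds was 0.39 (SE 0.09, interval 0.22 to 0.57), with an adjusted p of 8.95e-04 by limma with Benjamini-Hochberg adjustment, where 11.9% of genes were called and 5.62% as higher. Without all libraries numbered 1, 2 or 3 it was no longer called, with adjusted p of 0.0126, 0.0229 and 0.0205, though the difference stayed between 0.36 and 0.42 when any of the 4 numbers was left out. Over both times, the mean was higher in season 2 in 8 of 8 matched seed pairs. The libraries of 4 pairs did not overlap, as many as 3.62% of genes reached. Those pairs were control Lumen and heated Solar, each at 7 and at 14 DAF. The count thus includes the 7 DAF libraries from which the gene was named, and it is given as a description. In siliques the season difference was -0.07 (SE 0.16), with an adjusted p of 0.806, against 15.2% of genes called, and the mean was higher in season 2 in 4 pairs, lower in 3 and equal in 1. Without the 2 seed libraries that stood apart, the seed season difference over both times was 0.42.

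The heat comparison was the purpose of the field treatment. In seeds MYC67 was 26.4 ± 8.08 in control and 25.1 ± 6.51 in heated plots (SD, n = 28 each), a difference of -0.05 (SE 0.06, 95% interval -0.17 to 0.07), with an adjusted p of 0.745 by limma with Benjamini-Hochberg adjustment. In siliques it was 4.64 ± 3.01 in control and 3.68 ± 2.04 in heated plots, a difference of -0.21 (SE 0.16, interval -0.54 to 0.12), with an adjusted p of 0.479. By this test 1.64% of genes were called in seeds and 5.09% in siliques. The silique interval is the wider and still allows a difference of -0.54.

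The heat effect was also taken within each hybrid and time. In seeds it was -0.04 in Lumen at both 7 and 14 DAF, 0.07 in Solar at 7 DAF and -0.20 in Solar at 14 DAF (SE 0.12 each). In siliques it was -0.29 in Lumen at 7 DAF, 0.13 in Lumen at 14 DAF, -0.26 in Solar at 7 DAF and -0.43 in Solar at 14 DAF (SE 0.33 each). At 14 DAF these silique values average unlike seasons, 1.03 in season 1 alone and -0.77 in season 2 alone for Lumen, and 0.21 and -1.07 for Solar, none of them called. None of the 8 was called, with adjusted p of 0.653 or more in seeds and 0.74 or more in siliques by limma with Benjamini-Hochberg adjustment. In the same order, 0.127%, 0.0412%, 0.0319% and 0.186% of genes were called in seeds and 0.336%, 0.486%, 0.128% and 0.0968% in siliques. Within a season, the heated mean was higher in 4 of 8 seed pairs and lower in the other 4. In siliques it was higher in 1 pair, lower in 6 and equal in 1.

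**Figure D3:**
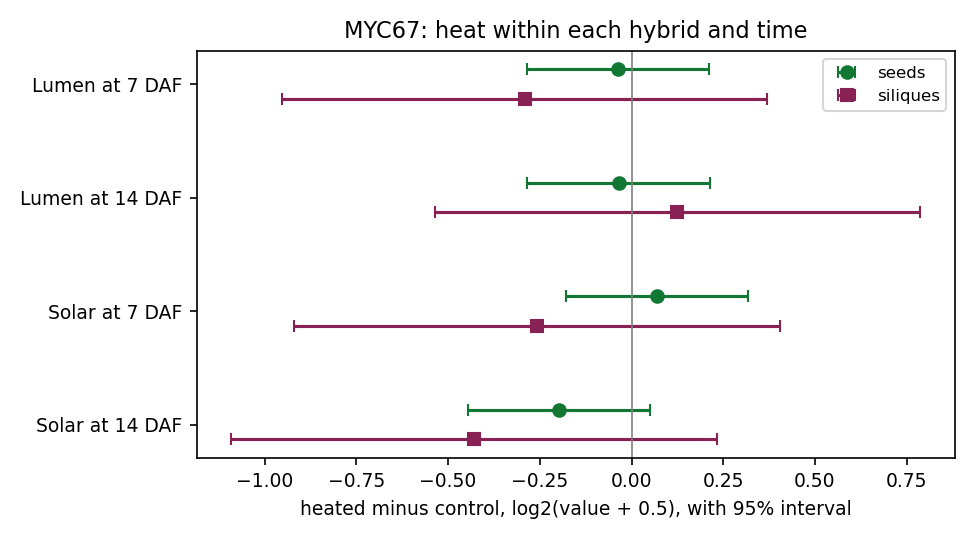
Heated minus control difference of MYC67 in log2(value + 0.5) (x axis) within each hybrid and time, as points with 95% intervals from limma, with circles for seeds and squares for siliques. All 8 intervals include 0, and those of siliques are the wider, with an SE of 0.33 against 0.12.

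In siliques the mean difference between heated and control plots had opposite signs in the 2 seasons. Values were 3.92 ± 2.43 in control and 4.08 ± 1.44 in heated plots in season 1 (SD, n = 12 each), and 5.19 ± 3.35 and 3.38 ± 2.39 in season 2 (n = 16 each). The difference was 0.20 (SE 0.25) in season 1 and -0.63 (SE 0.21) in season 2, with adjusted p of 0.819 and 0.0642. The difference between these, -0.83 (SE 0.33), had an unadjusted p of 0.0152 and an adjusted p of 0.597 by limma with Benjamini-Hochberg adjustment. It is thus not resolved among 54752 genes, of which 0.0237% were called for this interaction.

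No average difference between the hybrids passed the threshold for MYC67. In seeds the value was 26.6 ± 7.96 in Lumen and 24.9 ± 6.60 in Solar (SD, n = 28 each), a difference of 0.08 (SE 0.06, 95% interval -0.04 to 0.21) with an adjusted p of 0.276. In siliques it was 3.54 ± 1.86 in Lumen and 4.79 ± 3.07 in Solar, a difference of -0.27 (SE 0.16, interval -0.60 to 0.06) with an adjusted p of 0.182 by limma with Benjamini-Hochberg adjustment. Of all genes, 36.9% were called for hybrid in seeds and 36.8% in siliques.

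In siliques the difference between hybrids had opposite signs in the 2 seasons. In season 1 Lumen held 4.33 ± 1.78 and Solar 3.67 ± 2.15 (SD, n = 12 each), and in season 2 Lumen held 2.94 ± 1.73 and Solar 5.63 ± 3.44 (n = 16 each). In season 2 Lumen was lower by 0.85 (log2 difference -0.85, SE 0.21), with an adjusted p of 0.00142 by limma with Benjamini-Hochberg adjustment, where 26.2% of genes were called. In season 1 the difference was 0.31 (SE 0.25), with an adjusted p of 0.335. The difference between the seasons was -1.16 (SE 0.33, interval -1.82 to -0.50), with an unadjusted p of 9.83e-04 and an adjusted p of 0.0167, against 4.45% of genes called. Without the libraries numbered 3 the interaction was called, at -1.64 and an adjusted p of 0.00104, and the season 2 difference was not called without those numbered 1, 2 or 4, with adjusted p of 0.036, 0.0446 and 0.0214. In seeds the same interaction was -0.02 (SE 0.12).

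MYC67 varied less between libraries of a condition in seeds than in siliques. The residual SD on the log2 scale was 0.23 in seeds, where 21.2% of genes had a smaller one, and 0.62 in siliques, where 73.5% did. Among genes of similar mean, within 0.25 on the log2 scale, 46.6% of 2890 had a smaller SD in seeds and 79.1% of 5703 in siliques, so in seeds MYC67 lay near the middle of genes of its level. The median gene stood at 0.40 and 0.41. By mean value, MYC67 lay above 85.8% of the genes tested in seeds and above 41.7% of those tested in siliques. The spread between libraries of a condition made up 23.6% of the sum of squares in seeds and 35.0% in siliques.

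The study named 4 other hubs for the indianred2 module, and MYC67 was set beside them. These are PHL2 (BnaC03g43430D), INO1, ABI4 (BnaA03g18970D) and SEP3 (BnaC03g57540D). In Arabidopsis PHL2 belongs to the MYB-type factors of the phosphate starvation response, ABI4 is an AP2-type factor of abscisic acid signalling and SEP3 is a MADS-box factor of floral organ identity. The comparison gene group was the 5 hubs of a module called palevioletred, among them NGA1 (BnaC03g72370D) and ARF2 (BnaA06g21460D), the latter an auxin response factor.

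In seeds MYC67 was the only 1 of the 5 indianred2 hubs that was called higher at 14 than at 7 DAF. ABI4 and SEP3 were called lower, by limma log2 differences of -0.82 and -0.57, with Benjamini-Hochberg adjusted p of 2.17e-08 and 1.36e-10. INO1 at -0.18 and PHL2 at 0.01 were not called. Of the palevioletred hubs none rose and 2 fell, NGA1 at -0.66 and ARF2 at -0.60, and the remaining 3 lay between 0.06 and 0.09 and were not called. In siliques ABI4 was called lower as MYC67 was, at -0.73, while 3 palevioletred hubs were called higher. Of all genes tested, 37% were called for time in seeds, 20.7% as higher, and 34.3% in siliques, 17.1% as lower. With so few hubs, these counts do not set the modules apart from other genes. INO1 was too low in siliques to be tested there.

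In seeds all 5 indianred2 hubs had higher values in season 2 and all 5 palevioletred hubs had lower ones. The indianred2 log2 differences beside the 0.41 of MYC67 were 0.12 for PHL2, 0.67 for INO1, 0.57 for SEP3 and 1.34 for ABI4. Those of palevioletred ran from -1.15 for NGA1 to -0.38 for BnaA06g29050D. The hubs were picked on seed libraries of both seasons at 7 DAF, so this split is a description. Of all genes tested, 27.3% were called for season in seeds, 12.2% as higher. Under heat, SEP3 was called lower in seeds, at -0.45 with an adjusted p of 6.98e-06 by limma with Benjamini-Hochberg adjustment. None of the other 9 hubs was called, against 1.64% of all genes in seeds. ARF2 lay just over the threshold in seeds, at -0.20 with a limma adjusted p of 0.0138.

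**Figure D4:**
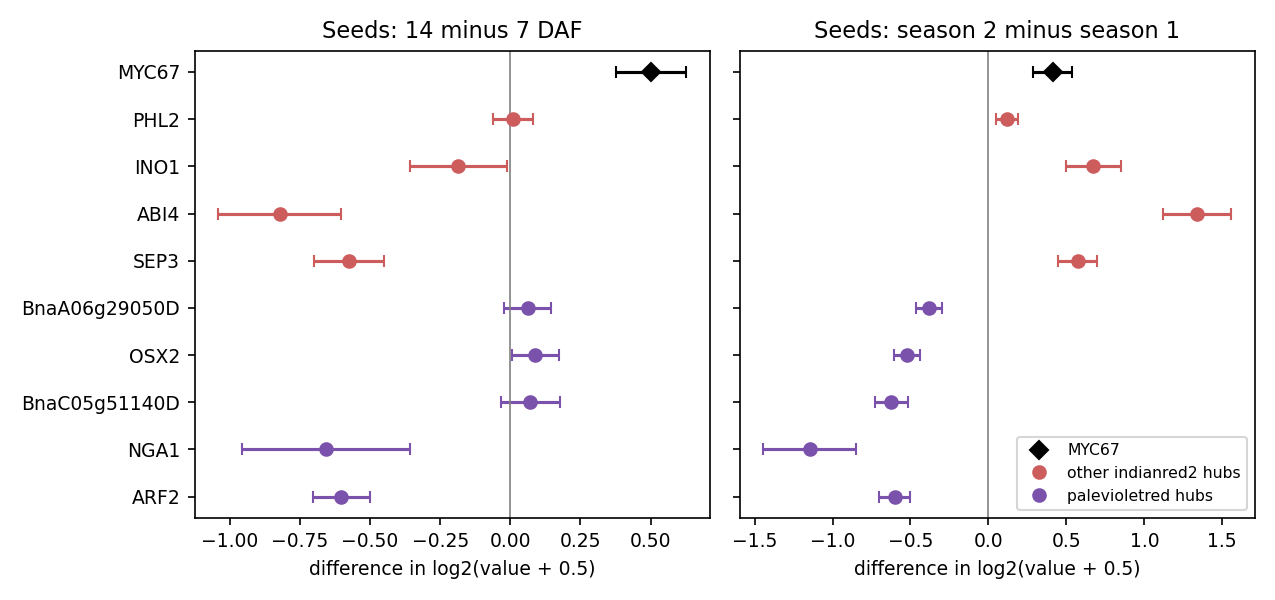
Seed differences of the 10 hub genes in log2(value + 0.5) (x axes, points with 95% intervals from limma) between 14 and 7 DAF (left) and between season 2 and season 1 (right). The diamond is MYC67, red circles are the other 4 indianred2 hubs and purple circles the 5 palevioletred hubs. MYC67 lies at 0.50 on the left, to the right of the other 9, and at 0.41 on the right.

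Between tissues MYC67 stood second among the indianred2 hubs. INO1 exceeded siliques by 4.42 at 7 DAF and 4.49 at 14 DAF, SEP3 by 1.23 and 0.63, PHL2 by 0.68 and 0.61, and ABI4 by 0.32 and 0.22. Only ABI4 was not called, where 77.5% of all genes were called at 7 DAF and 80.1% at 14 DAF. The seed value of MYC67, with medians of 21 and 29.5 at the 2 times, lay below that of PHL2, at 45.5 and 46, and of SEP3, at 172.5 and 110, in the deposited units. The study's methods name TPM, a length-corrected unit, as the output of the read assignment, but no source used here says that the deposited values are TPM, so levels of different genes are set side by side with that limit. A change in the tissue difference with time was called higher in MYC67 and lower in SEP3, at -0.60, and not called in the other 3.

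Whether MYC67 went up and down with the other hubs between libraries of the same condition was examined on deviations from the condition means. Outside the seed libraries at 7 DAF, 12 such relations were computed. The strongest was with PHL2 in seeds at 14 DAF, with Pearson r = 0.60 and Spearman rho = 0.52 over 28 libraries. Its permutation p was 0.00562 for r and 0.0166 for rho, and adjusted over the 12 they were 0.0674 and 0.199, so it did not pass. Without the 2 libraries farthest from the median of MYC67, r was 0.51. In the 28 seed libraries at 7 DAF, given as a description, r was 0.58 with PHL2 and -0.62 with INO1, and without the 2 farthest libraries it was 0.24 and -0.28.

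The genes most like MYC67 were found by Pearson r over condition means on the log2 scale, among genes with a mean of at least 5, and each r is a description. Over all 32 conditions BnaC01g13570D had r = 0.97 and BnaA08g05650D had r = 0.97. The first went from 15.7 ± 3.21 to 21.8 ± 2.81 in seeds between 7 and 14 DAF and from 3.14 ± 0.756 to 1.71 ± 0.763 in siliques (SD, n = 28 each). The second was far higher, at 234.9 ± 53.2 and 463.7 ± 134.0 in seeds and 21.1 ± 12.2 and 11.4 ± 9.05 in siliques. Both thus share the rise in seeds and the fall in siliques. The files give no name for either. With the tissue difference in it, an r over 0.8 was common, reached by 17.8% of 29313 genes, among them PHL2 at 0.85.

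Within a tissue, likeness was rarer. Over the 16 seed conditions BnaC08g03290D, on the same chromosome, had r = 0.94 and BnaC02g12790D r = 0.94, and 1.53% of 29488 genes exceeded 0.8. BnaC08g03290D had the higher means in siliques, with 26.2 ± 4.03 and 34.8 ± 5.62 in seeds at the 2 times against 35.7 ± 6.57 and 44.4 ± 6.93 in siliques. BnaC02g12790D had the higher means in seeds, with 68.0 ± 24.7 and 106.5 ± 31.3 in seeds against 1.39 ± 1.95 and 1.71 ± 2.07. Over the 16 silique conditions BnaA09g30280D and BnaC03g07610D led with r = 0.94 each. ARF2 ran against MYC67, with r = -0.80 over the seed conditions and -0.64 over the silique conditions. PHL2, at 0.85 over all 32 conditions, had r = 0.52 over the seed conditions and -0.49 over the silique conditions.

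Next to MYC67 in the order of identifiers on C08, the seed value fell away on both sides. BnaC08g31830D, just before it, was 0 in every seed library and 2.64 ± 0.870 and 4.25 ± 1.51 in siliques at 7 and 14 DAF (SD, n = 28 each). BnaC08g31820D, before that, was higher in seeds, at 5.86 ± 2.65 and 7.75 ± 2.32, than in siliques, at 1.07 ± 0.716 and 1.29 ± 0.937. BnaC08g31850D, just after MYC67, was 5.61 ± 0.832 and 6.79 ± 1.10 in seeds and 3.11 ± 0.917 and 3.29 ± 0.713 in siliques, and BnaC08g31860D was 0 in every library. All 4 thus had lower seed means than MYC67, and 2 of them, BnaC08g31820D and BnaC08g31850D, had higher means in seeds than in siliques, as MYC67 did.

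Of the 10 identifiers on either side, 8 were high enough to be tested in seeds and 10 in siliques. In seeds 1 was called higher at 14 DAF and none lower, the higher being BnaC08g31850D at 0.25 (adjusted p 8.02e-05 by limma with Benjamini-Hochberg adjustment). In siliques 3 were called higher and 2 lower, and BnaC08g31830D was among the higher at 0.60 (adjusted p 2.85e-05). Of all genes tested, 37% were called for time in seeds, 20.7% as higher, and 34.3% in siliques, 17.1% as lower. No neighbour was called higher in seeds and lower in siliques as MYC67 was. Only 1.38% of genes tested in both tissues were, so this absence among so few neighbours says little. Rape carries related A and C subgenomes, and reads that fit near-identical copies of a gene can be divided between them when they are assigned to transcripts, so the split between MYC67 and any such copy is uncertain.

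**Figure D5:**
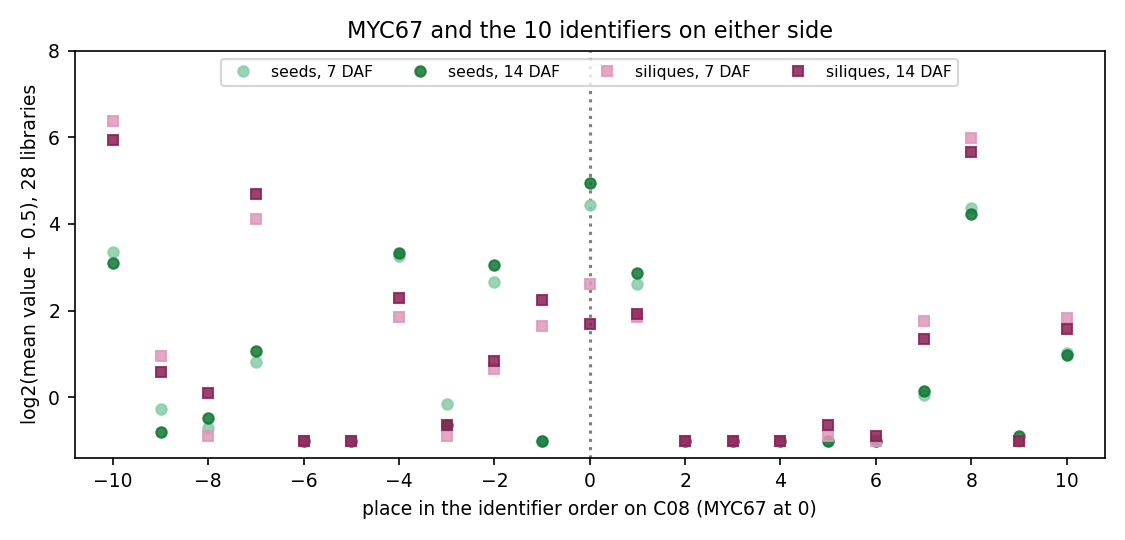
Mean value of MYC67 (place 0) and of the 10 identifiers before and after it on C08 (x axis, place in identifier order, not distance), as log2(mean + 0.5) over 28 libraries per tissue and time (y axis). Circles are seeds and squares siliques, pale at 7 DAF and dark at 14 DAF. MYC67 has the highest seed value at 14 DAF of the 21 genes, at 30.3, and identifiers at the bottom of the plot have a mean of 0.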

How the data were processed

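RNA-seq values of seeds and siliques came from 1 table of 101040 genes and 112 libraries. The authors pseudoaligned reads of stranded total RNA libraries to Brassica napus transcripts with kallisto (0.46 per the submitters' processing notes) and tested them with sleuth. The deposited values were treated as a score, since they are whole numbers that the authors normalized and rounded in a way the sources used here do not state. Libraries were assigned to conditions from the sample labels, and any pair of replicates differed in at least 38121 genes. Values were taken as log2(value + 0.5), and a gene entered the fit of a tissue if 47% or more of that tissue's libraries reached a value of 1. Fits used limma 3.58.1 in R 4.3.3, with a mean per condition and a trend in the prior variance. Genes were called at a Benjamini-Hochberg adjusted p under 0.01. Contrasts of season at each time, of time and season in each hybrid, and of time, hybrid and heat in each season were added after the data had been seen, as was leaving out the silique library with the highest sum. Exact and permutation tests used Python 3.11 with scipy 1.17.1. The code was tested on simulated data. Replicate numbers were not treated as pairs in the main fits, because the labels tie no number to a plot. Same-numbered seed and silique libraries of a condition correlated with a median of 0.26, and over 0.1 in 45 of 56 cases, so they may share plots. An alternative fit with these pairs as blocks kept the direction and the call of the 3 tissue differences. Genes named for comparison were the hubs the study names, the nearest identifiers on C08 and the 2 genes most like MYC67 in each set of conditions. The gene and these lists were chosen with earlier results of these data known. The RefSeq gene table at hand matched none of the identifiers.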

Additional observations from a re-analysis of the deposited data

Results flagged for a closer look

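The change of MYC67 from 7 to 14 DAF differed between the tissues, which is the only result picked out for a closer look. The log2 change was 0.50 in seeds and -1.06 in siliques, and the seed change minus the silique change was 1.56, tested as an interaction in the joint limma fit. None of the 16 conditions with 4 libraries, all of season 2, held a library far from the other 3. The conditions of season 1, with 3 libraries each, were not checked in this way.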

How the results depend on the processing

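Of 151 alternative settings over the 11 main differences, 145 kept the direction and the side of the threshold. The seed and silique time effects, the seed season effect and the 3 tissue differences kept both under every setting run, but not their size. The seed season effect holds the 7 DAF libraries from which the gene was named, so for it this is a description. The seed season difference at 14 DAF alone lost the call in 3 of 11 settings. The silique time change ran from -1.21 to -0.46, the latter with a pseudocount of 5. The tissue difference by time ran from 0.89 to 1.70. With a minimum value of 5, MYC67 did not enter the silique fit, so that setting gave no silique result. In siliques, the season difference near 0 became 0.011 with a pseudocount of 5 and ran from -0.22 to 0.056 when a replicate number was left out, the hybrid difference was 0.31 in season 1 alone and passed at -0.85 in season 2 alone, and heat was 0.20 in season 1 alone. Among 486 settings for 44 contrasts within hybrids, times or seasons and for interactions, 439 kept both, 22 lost the call, 2 gained it and 23 turned direction, all 23 in differences that were not called. Leaving out replicate numbers gave these ranges: silique season at 7 DAF -0.12 to 0.23, silique heat in Lumen at 14 DAF -0.0037 to 0.24, and in seeds heat by season -0.15 to 0.046, hybrid by season -0.12 to 0.089, hybrid by heat -0.053 to 0.085, hybrid by time -0.10 to 0.29, heat in Lumen -0.17 to 0.059 at 7 DAF and -0.14 to 0.066 at 14 DAF, and heat in season 1 -0.12 to 0.053. In season 1 alone, heat was 0.21 in Solar siliques at 14 DAF and, in seeds, 0.22 and 0.19 in Lumen at 7 and 14 DAF and -0.064 in Solar at 7 DAF. In season 2 alone it was -0.77 in Lumen siliques and 0.041 in Solar seeds at 14 DAF. Without the 2 seed libraries that stood apart, hybrid by season was 0.055, heat by season 0.019 and heat in Lumen at 7 DAF 0.060. With the replicate number as a block the seed and silique time effects stayed at 0.50 and -1.06 (limma adjusted p 1.97e-08 and 1.46e-06), and the block changed no call. The cause of these changes was not tested. As for resolution, silique values are whole numbers up to 14, the reads behind a single value are not given, and 3 or 4 libraries per condition cannot order adjacent conditions.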
